A study of Mus musculus with 6 samples.

Results

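The solute carrier genes are the genes whose symbols follow the pattern Slc, a family number, the letter a and a member number. They encode membrane proteins that move nutrients, ions, metals and metabolites without burning ATP directly. In this table of 15861 genes, 260 symbols began with that pattern, with 1 further gene left out and not analysed here. The members described are the 169 of them, from 43 families, with a mean of at least 1 CPM (the gene's share of the library total, scaled to parts per mega-count) over the 6 libraries. The level alone chose them, so the levels below are descriptions. The members just above the minimum were Slc46a1 at 1.02 CPM, Slc6a13 at 1.03 and Slc52a3 at 1.12, and just below it lay Slc25a35 at 0.999 CPM, Slc29a2 at 0.989 and Slc26a10 at 0.967. In 161 members the mean of each group reached the minimum, whereas 7 reached it only in the KO mean and 1 only in the WT mean. Of the 169, 4 carry the pattern without being carriers, namely Slc9a3r1, Slc4a1ap, Slc7a6os and Slc2a4rg-ps, which are named after a neighbouring or partner carrier.

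Carriers are grouped into families by sequence, and the members of a family often share a kind of cargo. A dividing B cell takes up amino acids, glucose and nucleosides at its surface, exchanges metabolites and nucleotides with its mitochondria, and loads nucleotide sugars and zinc into its secretory pathway. The germinal centre is the site where activated B cells divide quickly and are selected by T cells for antibody affinity.

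The libraries were made from polyadenylated RNA of B220+, GL7+, FAS+ sorted germinal centre B cells. The KO group held 3 C57BL/6 mice with 2 floxed alleles of Lsd1 (Lsd1 f/f) and 1 copy of a Cre allele named Cgamma-cre (Cgamma-cre+/-). The WT group held 3 littermates with the same floxed alleles, whose genotype names no Cre, so both groups carry Lsd1 f/f. The series describes 3 mice of each genotype for the 3 libraries of each group, so the p-values below measure the spread between these samples. Cre without floxed alleles was not analysed here, so effects of Cre and of the deletion cannot be told apart.

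Library totals were 12325300, 14327654 and 13127510 counts in KO and 3786455, 5524852 and 3390805 in WT, so depth and genotype cannot be told apart. Lsd1 is now named Kdm1a. It was read at 81.9, 33.0 and 21.8 CPM in KO libraries 1, 2 and 3, against 134, 85.2 and 92.6 CPM in WT libraries on the TMM scale (edgeR's scaling of library totals). The library labelled KO 1 was close to the lowest WT library. As shares of the library total, it had 87.5 CPM and the WT libraries 135, 78.9 and 87.6, so it lay within the WT range there. The B cell genes Cd79a and Ms4a1 had at least 4094 counts in every library, while the germinal centre gene Mef2b had at most 6. Summed over 20 macrophage markers, the libraries held 390, 314 and 4107 CPM of the total in KO and 525, 1849 and 3607 in WT. Several members described below were also highest in KO 3, WT 3 and WT 2, and the part of macrophage RNA in them was not tested.

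The 169 members took 0.826%, 0.748% and 0.889% of all counts in the KO libraries, against 0.803%, 0.680% and 0.722% in the WT libraries. The groups overlap in this share. Levels of different genes were compared as TMM-scaled CPM per kilobase of annotated exons, for the 165 members that passed the count filter of the test. By that scale the mean level over all libraries ran from 0.129 to 474 CPM per kb, with a median of 3.56. The order at the top was the same in both groups for the first 3 genes. These were Slc25a5 and Slc25a4, which encode ADP/ATP carriers of the inner mitochondrial membrane, and Slc25a3, the mitochondrial phosphate carrier, placed between them.

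Slc25a5 stood at 476 CPM per kb in KO and 472 in WT, the highest of all members. Its CPM values were 719, 901 and 732 in KO, against 718, 852 and 760 in WT. Both sets cover the same range, and the log2 fold change was 0.01 with a 95% interval of -0.42 to 0.45. Slc25a5 has processed pseudogene copies, to which reads can be shared. Slc25a3 had 573, 680 and 590 CPM in KO, against 705, 639 and 748 in WT, and Slc25a4 had 238, 268 and 192 in KO, against 206, 190 and 154 in WT. Slc25a11, the oxoglutarate carrier, and Slc1a5, the glutamine carrier ASCT2 of the cell surface, followed with means of 61.8 and 60.5 CPM per kb. These last values differ by less than the spread between libraries.

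**Figure D1:**
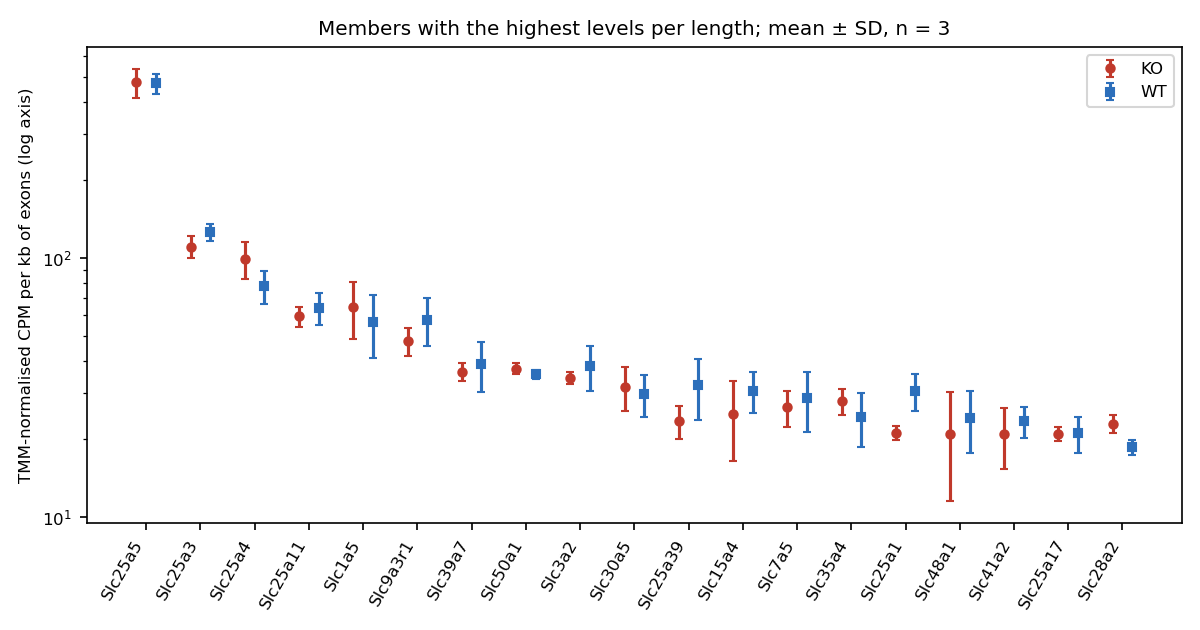
Members with the highest mean levels are shown as TMM-normalised CPM per kilobase of exons on a log axis, with KO (circles) left of WT (squares) for each gene and bars giving the SD over 3 libraries. Slc25a5 stands at 476 in KO and 472 in WT, well above Slc25a3 and Slc25a4, and for most of the other genes the bars of the groups overlap.

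The comparison asks which of these transcripts differ between KO and WT germinal centre B cells. No member passed the test over all genes: 0 of 165 had an adjusted p under 0.05 in edgeR's quasi-likelihood test, where 0.0824% of the 10926 genes tested were called, 0.0732% higher and 0.00915% lower in KO. DESeq2 and limma-voom called 0 members too, against 88 genes higher and 34 lower over the whole table in DESeq2 (0.807% and 0.312% of the genes with an adjusted p) and 2 higher and 0 lower in limma-voom (0.0183%). At an unadjusted p under 0.05, 14 members were higher and 6 lower in KO (edgeR), or 8.48% and 3.64% of the members, beside 7.1% and 5.5% of all genes tested. In both directions together this was 12.1% of the members and 12.6% of all genes. The lowest adjusted p of any member was 0.184 in edgeR, for Slc52a3, and 0.0746 in DESeq2.

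The KO libraries lay all above the WT libraries for 20 members, or 12.1%, and all below for 9, or 5.45%. Over all genes tested these shares were 10% and 7.95%. With library totals in place of TMM scaling the members divided into 28 higher and 2 lower, on a scale where the median of all genes was 0.13 in place of 0.01. The share not overlapping was then 18.2% of the members and 18% of all genes, both directions together. Shares of all genes by direction were not counted on that scale, so the split of 28 and 2 is no result about the members. The members' median log2 fold change was 0.11, with quartiles of -0.14 and 0.43, beside a median of 0.01 over all genes. It was above 0 for 110 members, or 66.7%, against 51.3% of all genes. Relative to the WT mean, the median member stood 0.15, -0.04 and 0.27 log2 units from it in KO libraries 1, 2 and 3, against 0.07, -0.04 and -0.03 in the WT libraries. KO library 2 was thus inside the WT range. At least 2-fold differences were fitted for 8 members higher in KO (4.85%) and 2 lower (1.21%), beside 4.47% and 1.16% of all genes. The 8 include Slc52a3, Slc6a13, Slc12a8 and Slc16a7, which reached the level minimum through the KO mean alone. For such members the choice by level favours the direction higher in KO. They are kept in all counts of members given here, and counts without them were not made. Shares near the background are no result about the members, and the median standard error of a member was 0.29 log2 units.

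**Figure D2:**
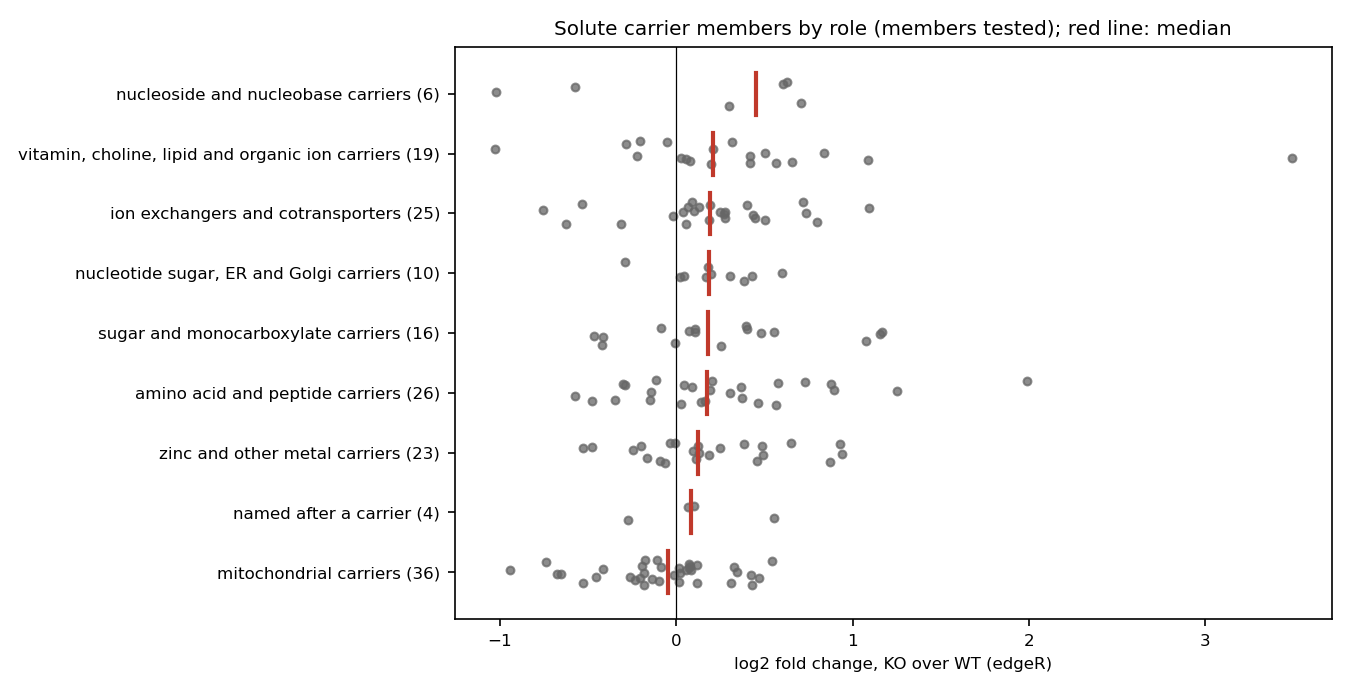
Each point is a tested member, placed by its log2 fold change of KO over WT (edgeR), in rows by role, with the median of the row as a red line and the number of members in brackets. The mitochondrial carriers centre on -0.05 and the other rows have medians between 0.08 and 0.45, and Slc52a3 lies alone at 3.49.

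Amino acid and peptide carriers had 26 tested members, of which 0 were called, 18 had log2 fold changes above 0 and 8 below, with a median of 0.18. Slc43a1 encodes LAT3, a carrier of large neutral amino acids such as leucine. It had 44.5, 20.6 and 27.2 CPM in KO, against 15.2, 9.38 and 14.3 CPM in WT. All KO libraries lay above all WT libraries, and the library labelled KO 1 was the highest. KO over WT was 1.25 on the log2 scale (SE 0.33, edgeR quasi-likelihood adjusted p = 0.203), and 0.88 without KO 1. With no filter on low counts it was the only member with an adjusted p under the threshold in any alternative (edgeR adjusted p = 0.0486). Slc43a3, a purine base carrier placed here with its family, had 99.7, 83.3 and 97.6 CPM in KO, against 65.7, 55.7 and 48.0 in WT (0.73 on the log2 scale, SE 0.20, edgeR quasi-likelihood adjusted p = 0.232). These groups did not overlap either. The remaining member, Slc43a2, encodes LAT4 and pointed the other way, with 44.0, 40.2 and 85.3 CPM in KO against 91.1, 60.4 and 85.4 in WT (log2 fold change -0.48).

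Slc43a1 lies on chromosome 2 from 84838850 to 84863594 on the plus strand and Slc43a3 from 84936579 to 84958509 on the same strand (mm10, GENCODE vM21), with Rtn4rl2 and a miRNA gene annotated between them. The RefSeq promoter table (GRCm38.p6) held Slc43a1 and not Slc43a3. The 250 bases before its RefSeq start overlap an exon of another annotated Slc43a1 transcript and are not printed. They hold CACGTG, the E-box bound by the Myc and TFEB families, and a match to TGACNNNGC, the antioxidant response motif, on the other strand. A match says that these letters are in the window and is no evidence of binding. Over 129 members with a promoter in the table, searched on both strands, CACGTG was found in 21 (16.3%), beside 10.2% of the 8638 tested genes and 6.86% of all 27025 genes in the table. TGACNNNGC was found in 27 members (20.9%), beside 14.2% of tested genes and 11.5% of all. The amino acid response motif TGATGNAAT was in 0 of the 129 members and in 0.451% of tested genes and 0.91% of all. These shares were not tested.

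The 2 chains of the leucine carrier of activated lymphocytes are encoded by Slc3a2, the CD98 heavy chain, and Slc7a5, the LAT1 light chain. Slc3a2 had 114, 122.8 and 127 CPM in KO, against 144, 105 and 154 in WT. Slc7a5 had 112, 81.3 and 102 CPM in KO, against 135, 79.4 and 105 in WT. The groups overlap for both chains. Their log2 fold changes were -0.15 (95% interval -0.61 to 0.31) and -0.12 (-0.63 to 0.40), so differences of 2-fold lie outside these intervals. Slc1a5 had 341, 210 and 256 CPM in KO, against 310, 199 and 199 in WT, with a log2 fold change of 0.19 (-0.36 to 0.74). Slc38a2, which encodes the sodium-coupled neutral amino acid carrier SNAT2, had 171, 115 and 134 CPM in KO, against 117, 117 and 91.6 in WT (log2 fold change 0.37, SE 0.22). Slc1a4, the related neutral amino acid carrier ASCT1, was at 4.78, 6.14 and 6.22 CPM in KO, against 10.8, 7.04 and 7.79 in WT, with no overlap (-0.57 on the log2 scale, SE 0.35, edgeR quasi-likelihood adjusted p = 0.52).

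In the SLC7 and SLC38 families the groups overlapped for every tested member. In the SLC7 family, 6 of 7 members had log2 fold changes above 0. Both numbers include Slc7a6os, which is merely named after a carrier and stood at 0.07. The values ran from -0.12 for Slc7a5 to 0.89 for Slc7a2, which had 4, 0 and 83 counts in KO and 1, 9 and 4 in WT. In the SLC38 family, 4 of 6 were above 0, from -0.29 for the lysosomal carrier gene Slc38a7 to 0.58 for Slc38a6. When 1 library was left out, Slc38a7 ran from -0.54 (without KO 3) to -0.05 (without WT 3) and Slc38a6 from 0.32 (without KO 3) to 1.05 (without WT 2). Slc7a7, the light chain y+LAT1, had 20.4, 30.8 and 45.5 CPM in KO, against 21.8, 20.3 and 33.0 in WT, a log2 fold change of 0.37 that was 0.02 without KO 3. Slc6a13, which encodes a GABA and taurine carrier, was barely read, with 20, 33 and 15 counts in KO and 1, 3 and 1 in WT. Its ratio of pooled CPM was 4.34, with an exact 95% interval of 1.77 to 13.8 for counting error only, and the edgeR adjusted p was 0.309. Slc6a13 passed the level minimum through the KO libraries alone.

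Sugar and monocarboxylate carriers had 16 tested members, of which 0 were called, 11 had log2 fold changes above 0 and 5 below (median 0.18). Slc2a3 encodes GLUT3, a glucose carrier of high affinity. Its level was 26.1, 28.5 and 34.7 CPM in KO, against 19.2, 10.6 and 12.8 CPM in WT. Each KO library was above each WT library, with means of 29.8 ± 4.41 and 14.2 ± 4.47 CPM (SD, n = 3 each). KO over WT was 1.07 on the log2 scale (SE 0.28, edgeR quasi-likelihood adjusted p = 0.203) and stayed between 0.89 and 1.34 over the alternatives. Slc2a1, which encodes the widespread glucose carrier GLUT1, had 38.4, 29.7 and 30.1 CPM in KO, against 38.3, 26 and 26.8 in WT. Its log2 fold change was 0.11 with a 95% interval of -0.41 to 0.63, and the difference between Slc2a3 and Slc2a1 was not tested. Per kilobase, Slc2a1 was higher than Slc2a3 in both groups, at 9.34 against 4.11 in KO and 8.67 against 1.96 in WT.

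Slc2a9, a urate carrier gene, had 3.42, 2.82 and 1.93 CPM in KO, against 1.05, 1.56 and 0.935 in WT, and was the SLC2 member with the highest log2 fold change (1.17, SE 0.55). The lowest was Slc2a8 at -0.42, and -0.18 without WT 1. Slc50a1, a sugar carrier of the SWEET family found mainly in the Golgi, was the highest of the group per kilobase, with 37.3 in KO and 35.5 in WT. Slc16a1, the lactate and pyruvate carrier MCT1, had 67.8, 67.8 and 83.7 CPM in KO, against 54.6, 68.0 and 43.0 in WT (log2 fold change 0.40, SE 0.23). Slc16a3, the MCT4 carrier of glycolytic cells, was low at 1.44, 1.27 and 1.79 CPM in KO, against 0.525, 0.977 and 4.99 in WT. Its sign rested on WT 3, with a log2 fold change of -0.47 in all libraries and 0.95 without that library. Slc16a7, which encodes MCT2, had the highest log2 fold change of the SLC16 family at 1.15 (SE 0.76). It was 0.73 without WT 1 and 1.85 without WT 2, and Slc16a7 reached the level minimum through the KO mean alone.

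**Figure D3:**
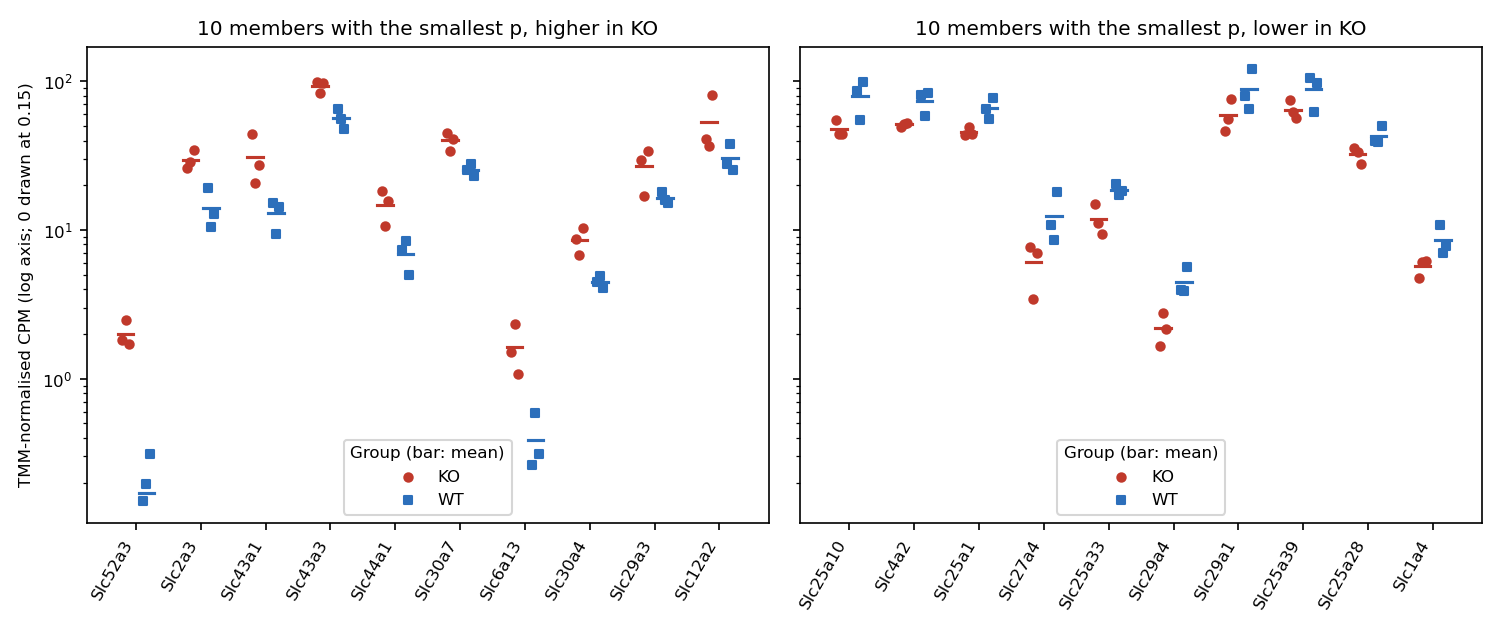
TMM-normalised CPM (log axis) is shown for the 10 members higher and the 10 lower in KO with the smallest unadjusted p, KO libraries as circles left of WT libraries as squares, with a bar at each mean and a value of 0 drawn below the lowest. None passed over all genes. The groups do not overlap for 8 of the 10 on the left, where Slc29a3 and Slc12a2 are the exceptions, and for 8 of the 10 on the right, where Slc29a1 and Slc25a39 are. These genes were picked by p in the same comparison, so little overlap follows from the choice and is no separate result. Over all genes tested, the groups lay apart for 10% higher and 7.95% lower in KO.

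Mitochondrial carriers of the SLC25 family made the largest group, with 36 members, all tested. Of these 0 were called, 17 had log2 fold changes above 0 and 19 below, with a median of -0.05. At an unadjusted p under 0.05, 3 of the 36 were lower and 0 higher in KO (edgeR), where 5.5% of all genes were lower and 7.1% higher. Slc25a10, the dicarboxylate carrier, had 54.9, 44.5 and 44.5 CPM in KO, against 86.1, 55.1 and 99.1 CPM in WT. The groups did not overlap, though KO 1 and WT 2 were almost equal, and KO over WT was -0.74 on the log2 scale (SE 0.25, edgeR quasi-likelihood adjusted p = 0.284). Slc25a1, the citrate carrier that exports citrate for fatty acid synthesis, had 43.9, 49.0 and 44.5 CPM in KO, against 65.7, 55.5 and 77.3 in WT. KO over WT was -0.53 on the log2 scale (SE 0.21, edgeR quasi-likelihood adjusted p = 0.334). Slc25a33, a pyrimidine nucleotide carrier, had 15.0, 11.2 and 9.44 CPM in KO, against 20.5, 17.2 and 18.4 in WT (log2 fold change -0.65, SE 0.28).

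Slc25a28, which encodes the iron carrier mitoferrin 2, was also apart, with 35.6, 33.4 and 27.7 CPM in KO, against 39.7, 39.3 and 50.2 in WT (log2 fold change -0.41). Slc25a39, needed for glutathione import into mitochondria, had 74.95, 62.2 and 56.7 CPM in KO, against 106, 62.2 and 97.9 in WT (log2 fold change -0.45). There WT 2 lay inside the KO range. Slc25a29, a basic amino acid carrier gene read at 1.001 to 3.74 CPM, had the lowest log2 fold change of the family, -0.94 (SE 0.58), and -0.59 without WT 3. The highest was 0.54 (SE 0.26) for Slc25a46, an outer membrane protein of mitochondrial dynamics. It had 58.2, 54.4 and 60.8 CPM in KO, against 32.8, 55.5 and 29.9 in WT, and the value was 0.88 without WT 2. Summed over the family, CPM was 2793, 3123 and 2713 in KO, against 3055, 2920 and 3046 in WT, and the groups overlap.

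Carriers of nucleotide sugars and other cargo of the endoplasmic reticulum and Golgi had 10 tested members, of which 0 were called, 9 above 0 and 1 below, with a median of 0.19. Slc33a1, which carries acetyl-CoA into the endoplasmic reticulum, had 25.8, 17.8 and 28.9 CPM in KO, against 14.7, 17.98 and 15.0 in WT (0.60 on the log2 scale, SE 0.27, edgeR quasi-likelihood adjusted p = 0.383). KO 2 lay at the level of the highest WT library. In the SLC35A subfamily, all 5 members were above 0 in the fit, from 0.02 for Slc35a5 to 0.38 for Slc35a3, the UDP-N-acetylglucosamine carrier. Under 6 of 13 alternatives Slc35a5 was below 0, and Slc35a3 was 0.18 without WT 1 and 0.71 without WT 2. Slc35a3 shares exon positions with another gene on its own strand, which makes its counts less certain. Slc35a4, the highest of the group per kilobase, had 97.6, 79.0 and 97.6 CPM in KO, against 96.6, 59.2 and 83.5 in WT.

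Zinc and other metal carriers had 23 tested members, of which 0 were called, 14 had log2 fold changes above 0 and 9 below (median 0.12). The SLC30 family moves zinc out of the cytosol, into vesicles and organelles or out of the cell, and 5 of its 6 members were above 0, with a median of 0.39. Slc30a7, a zinc carrier of the Golgi, had 45.0, 34.2 and 41.0 CPM in KO, against 25.2, 28.0 and 23.1 CPM in WT (0.65 on the log2 scale, SE 0.22, edgeR quasi-likelihood adjusted p = 0.284). Slc30a4, a zinc carrier of endosomal vesicles, had 8.66, 6.78 and 10.4 CPM in KO, against 4.46, 4.89 and 4.05 in WT (0.94 on the log2 scale, SE 0.36, edgeR quasi-likelihood adjusted p = 0.319). Slc30a1, the zinc exporter of the cell surface, had 7.14, 8.40 and 13.2 CPM in KO, against 4.46, 6.45 and 4.05 in WT (0.93 on the log2 scale, SE 0.38, edgeR quasi-likelihood adjusted p = 0.351). In all 3 genes each KO library was above each WT library, as in 10% of all genes tested, and in none did the test over all genes pass. These 3 genes were named by p or after their values were seen, so the lack of overlap is no separate result. Each overlaps exons of a gene with a Riken or Gm symbol on the other strand, and whether the counting used strand is not stated.

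The other 3 members of the SLC30 family overlapped between the groups. Slc30a5, which forms a pair with Slc30a6 in the early secretory pathway, was the highest of the family per kilobase, with 181, 257 and 258 CPM in KO, against 240, 240 and 171 in WT. Slc30a6 had the lowest log2 fold change of the family, -0.20 (SE 0.25), and -0.04 without WT 2. The 250 bases before the starts of Slc30a1 (chr1:191906531-191906780, plus strand) and Slc30a4 (chr2:122702664-122702913, minus strand) are shown because these zinc exporters had the largest log2 fold changes of the family. Zinc-responsive genes can carry the metal response motif, here searched only as TGCGCNC on both strands. The form TGCACNC was not searched, so a window without a marked match may still hold the motif. The Slc30a1 window holds that form on the other strand as gagtgca, left in small letters. Capitals mark 2 matches to TGCGCNC in Slc30a4 and 1 match to TGACNNNGC in Slc30a1 (RefSeq, GRCm38.p6). The window of Slc30a7 overlaps exons of Extl2 on the other strand and is not printed. It held no match to any of the 4 motifs in the forms searched.
Slc30a1: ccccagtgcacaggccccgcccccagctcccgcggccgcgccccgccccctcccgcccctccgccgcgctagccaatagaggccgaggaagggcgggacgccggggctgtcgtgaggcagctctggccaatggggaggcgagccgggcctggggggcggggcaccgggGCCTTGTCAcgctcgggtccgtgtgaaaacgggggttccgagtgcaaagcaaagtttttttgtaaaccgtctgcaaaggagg
Slc30a4: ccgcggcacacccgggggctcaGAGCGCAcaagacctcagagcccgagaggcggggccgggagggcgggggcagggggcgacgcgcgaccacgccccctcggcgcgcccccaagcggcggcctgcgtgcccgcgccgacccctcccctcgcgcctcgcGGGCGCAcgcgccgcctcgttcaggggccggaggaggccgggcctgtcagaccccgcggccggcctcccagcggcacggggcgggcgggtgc
TGCGCNC was found in 27 of the 129 members with a promoter in the table (20.9%), beside 25.1% of tested genes and 14% of all.

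The SLC39 family moves zinc towards the cytosol. Of its 11 members 10 were tested, 6 above 0 and 4 below, between -0.48 for Slc39a3 and 0.49 for Slc39a6, and none was apart. Slc39a3 was at -0.20 without WT 3 and -0.71 without WT 2. Slc39a6, which encodes ZIP6, had 46.6, 39.7 and 49.7 CPM in KO, against 40.7, 28.9 and 27.4 in WT. Slc39a7, a zinc carrier of the endoplasmic reticulum and the highest of the metal carriers per kilobase, had 96.1, 85.8 and 99.7 CPM in KO, against 106, 76.0 and 119 in WT. It shares exon positions with another gene on its own strand, which makes its counts less certain.

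Ion exchangers and cotransporters had 25 tested members, of which 0 were called, 20 above 0 and 5 below, with a median of 0.19. Slc4a2, the chloride and bicarbonate exchanger AE2, was at 49.7, 51.6 and 52.7 CPM in KO, against 80.9, 58.6 and 83.5 CPM in WT. The groups did not overlap, the KO libraries were close to each other, and KO over WT was -0.53 on the log2 scale (SE 0.21, edgeR quasi-likelihood adjusted p = 0.334). Slc4a2 overlaps exons of Fastk on the other strand. Slc4a7, a sodium bicarbonate cotransporter gene, had the highest log2 fold change of the SLC4 family, 0.44 (SE 0.26), which was 0.23 without WT 1 and 0.71 without WT 2. Slc12a2, the sodium, potassium and chloride cotransporter NKCC1, had 40.9, 36.7 and 81.3 CPM in KO, against 27.8, 37.9 and 25.2 in WT. KO 3 was far above the others, and the log2 fold change of 0.80 (SE 0.32) was 0.34 without it. In the same family Slc12a8 had the highest log2 fold change, 1.09 (SE 0.60), at 0.623 to 2.36 CPM, and reached the level minimum through the KO mean alone.

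Nucleoside and nucleobase families had 6 tested members, 0 called, 4 above 0 and 2 below. The group follows family numbers, so the ascorbate carriers Slc23a1 and Slc23a2 are counted in it. Slc29a1, the nucleoside carrier ENT1 of the cell surface, had 46.4, 55.5 and 76.5 CPM in KO, against 79.6, 65.1 and 122 in WT (-0.58 on the log2 scale, SE 0.27, edgeR quasi-likelihood adjusted p = 0.411). KO 3 lay within the WT range, and the value was -0.29 without WT 3 and -0.83 without KO 3. Slc29a3, the lysosomal nucleoside carrier ENT3, had 29.7, 17.1 and 34.1 CPM in KO, against 18.1, 16.03 and 15.3 in WT (log2 fold change 0.71, SE 0.29). There KO 2 lay within the WT range. Slc29a4, a monoamine carrier gene, was read at 1.67, 2.75 and 2.14 CPM in KO, against 3.94, 3.91 and 5.61 in WT, without overlap (-1.02 on the log2 scale, SE 0.46, edgeR quasi-likelihood adjusted p = 0.393). Slc28a2, a concentrative nucleoside carrier gene, was the highest of the group per kilobase. It had 88.9, 105 and 95.2 CPM in KO, against 72.7, 82.9 and 78.9 in WT, and the groups were apart with a log2 fold change of 0.30 (SE 0.19).

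Carriers of vitamins, choline, lipids and organic ions had 19 tested members of 21, of which 0 were called, 14 above 0 and 5 below (median 0.21). Slc52a3, a riboflavin carrier gene, had the largest log2 fold change of all members, 3.49 (SE 0.85, edgeR adjusted p = 0.184), from very few reads. Its counts were 24, 35 and 24 in KO and 0, 1 and 1 in WT. The ratio of pooled CPM was 13.3, with an exact 95% interval of 3.56 to 111 for counting error only, and a count of 0 allows up to 0.792 CPM in WT 1. It reached the level minimum through the KO libraries alone. Slc44a1, a choline carrier gene, had 18.2, 10.7 and 15.6 CPM in KO, against 7.35, 8.40 and 4.99 CPM in WT, without overlap (1.09 on the log2 scale, SE 0.34, edgeR quasi-likelihood adjusted p = 0.278). It overlaps exons of a gene with a Riken symbol on the other strand. Slc27a4, which encodes the fatty acid transport protein FATP4, had 7.75, 3.46 and 7.01 CPM in KO, against 10.8, 8.60 and 18.1 in WT (-1.03 on the log2 scale, SE 0.41, edgeR quasi-likelihood adjusted p = 0.34), and -0.68 without WT 3. Slc48a1, a heme carrier gene of the endolysosome, was the highest of the group per kilobase and had 49.7, 36.4 and 86.4 CPM in KO, against 50.4, 62.7 and 85.7 in WT.

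Of the 4 genes merely named after carriers, 0 were called. Slc9a3r1, which encodes the scaffold protein NHERF1, had the highest level per kilobase, with 85.9, 104 and 84.6 CPM in KO against 123.4, 84.0 and 125 in WT (log2 fold change -0.27, SE 0.22). Slc4a1ap had 40.6, 40.8 and 39.1 CPM in KO, against 38.6, 38.3 and 35.2 in WT, groups that do not overlap while differing by 0.10 on the log2 scale. Outside the test stood 4 members under its count filter, given as CPM of the library total. Slc27a3 had 4.06, 0.907 and 0.609 in KO and 1.85, 1.09 and 0.590 in WT. Slc39a8 had 1.06, 0.349 and 4.04 in KO and 0.264, 1.99 and 0.885 in WT. Slc46a1 and Slc5a3 stayed between 0.324 and 2.13 in every library.

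Most of the members with the widest spread varied inside each genotype. Among 138 tested members with a mean of at least 5 CPM, 10 had a highest library at least 5 times the lowest, or 7.25%, beside 4.57% of the 9309 genes at that level. They were picked by this ratio after the values were seen. Slc11a1, the NRAMP1 metal carrier of macrophage phagosomes, was at 3.57, 7.27 and 70.3 CPM in KO, against 7.35, 38.9 and 71.4 in WT. Slc45a3, a sugar carrier gene that shares exon positions with another gene on its strand, had 1.37, 2.33 and 33.0 CPM in KO, against 4.46, 13.1 and 32.1 in WT. Slc16a9, a monocarboxylate carrier family gene, had 0.835, 1.06 and 22.4 CPM in KO, against 0.263, 5.86 and 11.5 in WT. KO 3, WT 3 and WT 2 were the high libraries for each of these genes.

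The same 3 libraries were the highest for Slc9a9, an endosomal sodium and proton exchanger gene, Slc7a8, the LAT2 light chain, Slc8a1, the sodium and calcium exchanger NCX1, Slc16a10, an aromatic amino acid carrier gene, and Slc12a7, which encodes KCC4. Slc1a3 and Slc27a4 had other orders. The macrophage markers had their highest sums in those libraries as well, at 4107 CPM in KO 3, 3607 in WT 3 and 1849 in WT 2, against 314 to 525 in the other libraries. All 20 markers were in the table, none at 0 in any library. Csf1r had 228, 307 and 6157 counts in KO and 139, 940 and 1300 in WT. Not all followed this order: Itgam had 248, 35 and 66 counts in KO and 1, 17 and 2 in WT, and Itgax had 370, 12 and 110 in KO and 3, 10 and 16 in WT, both highest in KO 1. The part of macrophage RNA in these carriers was not tested, and in bulk samples fewer cells of a type and less RNA per cell cannot be told apart. For several of them the log2 fold change depended on 1 library. That of Slc11a1 was -0.53 (SE 1.46), and -2.87 without KO 3 and 0.20 without WT 3, while that of Slc9a9 was 0.45, and -1.54 without KO 3.

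**Figure D4:**
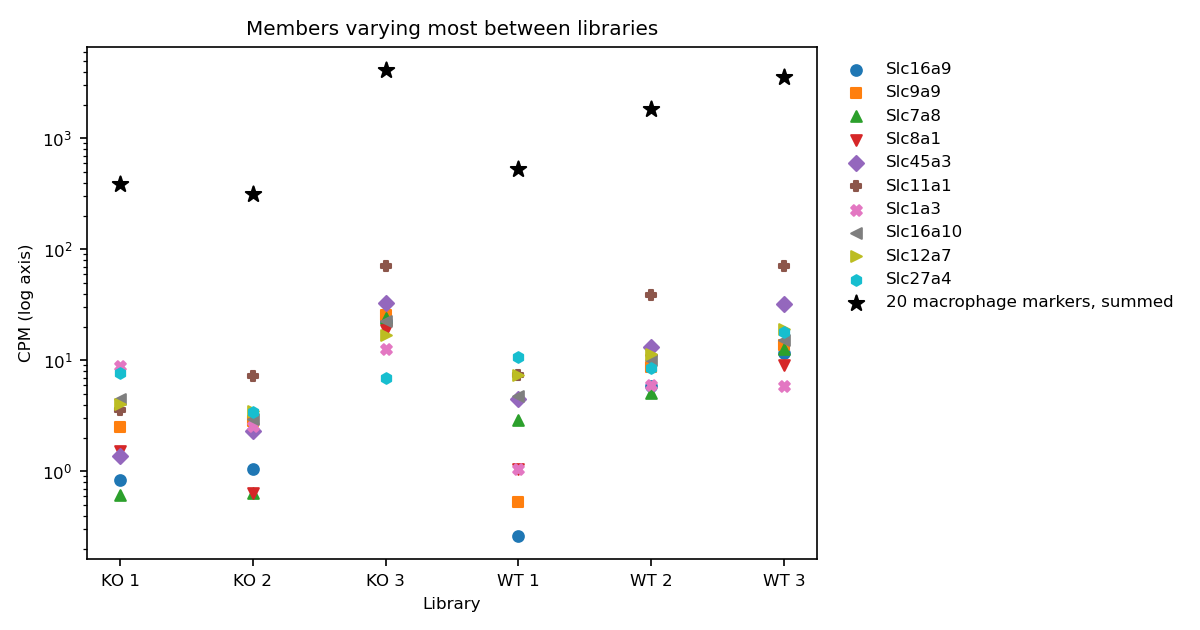
For each library, KO left of WT, the TMM-normalised CPM of the 10 members that varied most is shown on a log axis, with a star for the summed CPM of the library total over 20 macrophage markers. The stars stand at 4107 in KO 3, 3607 in WT 3 and 1849 in WT 2, and 8 of the 10 carriers have their highest values in these 3 libraries.

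Slc4a1, the band 3 anion exchanger of red cells, had 3, 0 and 60 counts in KO and 0, 10 and 19 in WT. The erythroid gene Alas2 had 4, 9 and 72 counts in KO and 3, 18 and 48 in WT. Of 12 erythroid markers 7 were in the table and they summed to 2.43, 3.21 and 12.2 CPM in KO, against 6.87, 10.1 and 22.7 in WT. The log2 fold change of Slc4a1 was -0.76 (SE 1.84), -4.37 without KO 3 and 0.53 without WT 3. Of the other marker lists, the 12 of 14 T cell markers in the table had sums of 322, 356 and 324 CPM in KO, against 350, 335 and 423 in WT, nearly all of it Cd2 and Lck, and 10 plasma cell markers had 2715, 3042 and 3350 in KO against 2328, 3299 and 2880 in WT. The 12 germinal centre B cell markers summed to 8570, 9777 and 9274 CPM in KO, against 8910, 12340 and 10520 in WT. The sums of all 3 lists overlap between the groups, while single genes in them do not. Of 9 tested plasma cell markers 7 were above 0 and 2 below (median 0.25). Only 1, Irf4, was apart, where 10% of all genes were apart and higher in KO. Irf4 had 104, 49.3 and 85.5 CPM in KO, against 46.8, 30.5 and 34.3 in WT (1.10 on the log2 scale, SE 0.29). Prdm1 was at 2.30 (SE 0.77) with overlap, and at 1.54 without KO 1. Other markers of this list stood lower, with Jchain at 0.13, Xbp1 at 0.03 and Mzb1 at -0.47. Of 11 tested germinal centre B cell markers 10 were below 0, and Cd79a and Cd79b had all KO libraries below all WT libraries, at -0.48 and -0.67 on the log2 scale. None of these markers was called in edgeR, and their part in the carrier values was not tested.

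Genes that work with carriers gave 0 calls in each of 4 lists in edgeR with all libraries, where 0.0824% of all genes tested were called. Calls in these lists were not counted for DESeq2 or limma-voom. Among 14 partners and ion pumps, 11 were tested, 7 above 0 and 4 below (median 0.03). Emb encodes embigin, which brings monocarboxylate carriers to the cell surface. It had 21.9, 73.7 and 77.3 CPM in KO, against 21.5, 24.6 and 17.1 in WT. KO 2 and KO 3 stood above every WT library and the library labelled KO 1 lay within the WT range. KO over WT was 1.44 on the log2 scale (SE 0.46, edgeR quasi-likelihood adjusted p = 0.291). Without KO 1, the KO library lowest for Emb, it was 1.83 and Emb passed (edgeR adjusted p = 0.00818). Without any other single library Emb did not pass, at 1.16 to 1.57 on the log2 scale (edgeR adjusted p = 0.2225 to 0.953). Bsg, which encodes basigin, the main partner of MCT1, had 129, 145 and 125 CPM in KO, against 173, 164 and 201 in WT, without overlap (-0.43 on the log2 scale, SE 0.19, edgeR quasi-likelihood adjusted p = 0.39).

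Among 20 carriers that belong to SLC families under other names, 18 were tested, 10 above 0 and 8 below (median 0.07). Mtch1, a carrier-like protein of the outer mitochondrial membrane, differed by -0.60 on the log2 scale (SE 0.23) and the lysosomal lipid carrier gene Spns1 by -0.47 (SE 0.24). In the list of lysosomal amino acid sensing, 25 of 26 genes were tested, 12 above 0 and 13 below, with a median of -0.02. Tfeb, a transcription factor of lysosomal genes, had 108, 119 and 115 CPM in KO, against 192, 123.1 and 206 in WT (-0.61 on the log2 scale, SE 0.23, edgeR quasi-likelihood adjusted p = 0.313). Lamtor1, the lysosomal anchor of the Ragulator complex, differed by -0.57 on the log2 scale (SE 0.22). For both, the KO libraries lay below the WT libraries.

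The amino acid stress response list had 12 tested genes of 13, with 3 above 0 and 9 below (median -0.31). Asns, which encodes asparagine synthetase, had 27.3, 42.9 and 25.02 CPM in KO, against 57.8, 51.2 and 50.5 in WT (-0.74 on the log2 scale, SE 0.25, edgeR quasi-likelihood adjusted p = 0.284). Psat1, an enzyme of serine synthesis, had 244, 277 and 214 CPM in KO, against 311, 397 and 387 in WT (-0.57 on the log2 scale, SE 0.20, edgeR quasi-likelihood adjusted p = 0.299). The groups did not overlap for either gene, and neither passed.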

How the data were processed

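Raw counts by gene symbol, 6 columns in 1 table, were deposited by the authors. The submitters' processing notes list mm10, CASAVA, STAR 2.5.2 and featureCounts 1.5.2. Which annotation and strand setting were used, and how reads with several hits were treated, is not given in the sources used here. Groups and replicate numbers came from the sample titles.

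KO was compared with WT in a two-sided edgeR quasi-likelihood test (version 4.0.16, R 4.3.3) on TMM-scaled counts of the 10926 genes that filterByExpr kept, with robust dispersions and no covariate. Adjusted p-values are Benjamini-Hochberg values over those genes, with a threshold of 0.05. Each standard error is the fold change divided by the root of F, and intervals are 95%. DESeq2 1.42.0 and limma 3.58.1 (voom) were alternatives, and the tests were checked on simulated data. Exon lengths, overlaps and coordinates came from GENCODE vM21 of the same build, which held all 169 members. Of these, 10 share exon positions with another gene on the same strand. Exons of 45 overlap a gene on the other strand, and not every such member is marked in the text. Library totals were 12325300 to 14327654 counts in KO and 3390805 to 5524852 in WT, so that 1 count is worth 0.0698 to 0.0811 CPM in KO and 0.181 to 0.295 in WT. Intervals of ratios and floors (3 counts) cover counting error only.

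Members, lists and tests were chosen with earlier results of these data known. The text names up to 10 members per direction by unadjusted p, the extremes of families with at least 5 tested members, the highest of each role per kilobase and a fixed set of 12 genes, and others where it says so. Up to 2 genes per list with the smallest unadjusted p are named. Genes described for not passing the filter, for varying most, for high levels, or as the rest of a family were named after their values were seen. Pairs of libraries within a group differed by 14.4 to 50.9 in chi-square per degree of freedom, so none looked like a repeat. No per-sample column was left unused. Some genes that the naming rule covers are not reported here.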

Additional observations from a re-analysis of the deposited data

How the results depend on the processing

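The count of genes called over the whole table, 9 in edgeR with all libraries, was 122 with DESeq2, 18 with library totals, 2 with limma-voom, 93 with no filter and 21 with the replicate number as a block, and 1 to 24 when a library was left out. The count of members called was 0 in each of these fits, except 1 with no filter (Slc43a1, log2 fold change 1.24). The members' median log2 fold change ran from 0.04 to 0.24 over all alternatives. The number of members not overlapping, 29 in the main setting, was 37 to 64 when a library was left out, where fewer libraries overlap by construction. It was 59 without KO 2 (36.6% of members, 35.1% of all genes), 50 without WT 1 (29.6% and 30.4%) and 64 without WT 2 (37.9% and 42.9%), so the share over all genes moved alike. The replicate numbers matched the samples only in part: deviations of same-numbered libraries correlated at 0.343, -0.0532 and 0.445. KO 1 correlated best with WT 1 and KO 3 with WT 3, while KO 2 correlated best with WT 1 (0.195). Whether the numbers mark pairs is thus not settled, and the main test used no block. With that block 0 members were called and the smallest adjusted p of a member was 0.125 (edgeR).

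For the named genes whose log2 fold change took the other sign under an alternative, the cause was not tested. Slc25a5 was -0.0236 with DESeq2, -0.0235 with its size factors, and -0.0924 to 0.0852 when a library was left out. Slc35a5 was -0.0090 with DESeq2, -0.0073 with its size factors, -0.0117 with limma-voom, and -0.29 to 0.41 without a library. Slc39a7 was 0.0253 with library totals and -0.26 to 0.0453 without a library. Slc16a3 was 0.0732 with limma-voom and -0.98 to 0.95 without a library, and Slc7a2 was -1.32 with limma-voom and -0.32 with the block. Without 1 library, Slc1a5 ran from -0.0259 to 0.41, Slc2a1 from -0.0292 to 0.29, Slc7a5 from -0.29 to 0.0693, Slc48a1 from -0.65 to 0.0448, Slc4a1 from -4.37 to 0.53, Slc9a9 from -1.54 to 1.11 and Slc11a1 from -2.87 to 0.20. Among the other members that varied most, the sign turned for Slc16a9 (-2.63 without KO 3 and -0.11 without WT 1), Slc7a8 (-3.46 and -0.09), Slc8a1 (-2.66 and -0.46), Slc45a3 (0.08 without KO 1, 0.07 without KO 2 and 0.46 without WT 3) and Slc16a10 (0.33, 0.43 and 0.40). With a level minimum of 0.5 or 5 CPM there would be 185 or 138 members. Depth limits the WT group most, where 1 count is worth up to 0.295 CPM.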

Other observations

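Symbols of solute carrier families with another letter lie outside the members. Of 25 such genes 16 were tested and 0 called in edgeR, 1 had an unadjusted p under 0.05, and the median log2 fold change was -0.01. That gene was Slc35b2, which encodes a carrier of the sulfate donor PAPS into the Golgi and was named after its values were seen. It had 46.0, 59.6 and 56.6 CPM in KO, against 85.3, 90.7 and 118 CPM in WT, without overlap (-0.86 on the log2 scale, SE 0.21, edgeR quasi-likelihood adjusted p = 0.193). In unadjusted terms its p of 0.00178 would stand second only to Slc52a3, at 0.0016, among the solute carrier genes tested.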
